A study of Mus musculus with 8 samples.

Results

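The genes of photoreceptor cGMP synthesis and calcium sensing were compared between retinas of *dmbo* and wild-type (WT) mice. There were 7 of them among the 21652 genes with a symbol of their own in the deposited table: *Gucy2e* and *Gucy2f*, which encode the photoreceptor membrane guanylate cyclases, *Rd3*, which encodes a protein that binds these cyclases, *Guca1a* and *Guca1b*, which encode the guanylate cyclase activating proteins, *Rcvrn*, which encodes recoverin, and *Slc24a1*, which encodes the rod sodium/calcium-potassium exchanger. They were chosen by symbol, with earlier results of these data known, and each had 1 probe set. The *dmbo* group was made of 4 mice homozygous for an allele of *Hmx1*, which encodes a homeobox transcription factor, with a premature stop codon, and the WT group of 4 C57BL/6J mice. All 8 retinas were taken at postnatal day 15, and RNA of each went on its own microarray. The strain label of both groups was C57BL/6J. The *dmbo* line had been backcrossed to C57BL/6J for only a few additional generations. This was done to make the background homogeneous and to remove the *rd1* mutation the line carried, a mutation of the phosphodiesterase gene *Pde6b*. Any background left from before the backcross would go with genotype and cannot be told apart from it here. The deposited values are log2 signals, so a difference of 1 is a doubling. Levels of different probe sets are not comparable as amounts of RNA, so where the signals of 2 genes are subtracted within an array, only the change of that difference between the groups is read, and "brightest" refers to signal alone.

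In the dark, the photoreceptor cyclases make cGMP, which holds cation channels of the outer segment open. In light, cGMP is broken down, the channels close, and calcium falls because the exchanger continues to carry it out. The activating proteins sense this fall and switch the cyclases on, which restores cGMP, whereas recoverin, when it holds calcium, restrains a kinase that ends the light response. RD3 carries the cyclases toward the outer segment and keeps them inactive on the way. In humans, mutations of *GUCY2D*, the counterpart of mouse *Gucy2e*, and of *RD3* cause Leber congenital amaurosis, and mutations of *GUCA1A* cause cone dystrophy.

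The promoter sequences were looked at first, because the cyclase and activating protein genes are known targets of photoreceptor transcription factors and because HMX1 binds CAAGTG. RefSeq promoter windows (build GRCm38.p6) from 250 bases before to 50 bases after a start were at hand for 5 of the 7 genes, in 6 windows. In all, 4 motifs were searched on both strands: CAAGTG of HMX1, TNAAGTG of NKX2-5, TAATCC of CRX and TGCTGA of NRL. CRX and NRL are transcription factors of photoreceptors. TAATCC or its reverse complement was found in the windows of *Guca1a*, *Gucy2e* and *Gucy2f*, and in 7.06% of the 32851 windows of 300 bases. CAAGTG was found in the window of *Gucy2f* alone of these genes, directly beside a TAATCC motif, and in 13.6% of all windows. The window of *Guca1a* held no CAAGTG on either strand. TNAAGTG (11.5% of all windows) and TGCTGA (19.5%) were in none of the 6 windows, and neither the window of *Slc24a1* nor the 2 of *Rd3* held any of the 4 motifs. The 3 windows with a motif are shown from 100 to 31 bases before the start, all on the minus strand, with the motifs in capitals. They lie at chr17:47400637-47400706 (*Guca1a*), chr11:69237053-69237122 (*Gucy2e*) and chrX:142196967-142197036 (*Gucy2f*).
Guca1a: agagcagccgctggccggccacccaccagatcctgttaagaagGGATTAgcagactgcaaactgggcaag
Gucy2e: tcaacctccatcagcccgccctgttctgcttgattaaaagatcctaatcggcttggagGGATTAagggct
Gucy2f: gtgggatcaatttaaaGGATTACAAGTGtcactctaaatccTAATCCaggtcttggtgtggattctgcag
In *Guca1a* and *Gucy2e* the motif is in the reverse complement, GGATTA. In *Gucy2f* the run of capitals holds GGATTA and then CAAGTG without overlap, and TAATCC follows. These matches describe letters of the reference and not binding.

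The arrays themselves differed in ways that were not those of the genotype alone. Lens crystallin signal differed between retinas, and its source was not tested. Averaged over 16 crystallin genes, the log2 signal of the *dmbo* retinas was 11.51, 10.27, 8.48 and 12.52 for replicates 1 to 4, and that of the WT retinas 7.60, 7.61, 7.89 and 9.09 (two-sided exact permutation test, p = 0.0571). *Xist*, which is made from the silenced X chromosome of females, was present together with transcripts of the Y chromosome in *dmbo* replicates 1 and 2, and how this arose was not tested. *Dmbo* replicates 3 and 4 and WT replicate 2 carried *Xist* with low Y-linked signal, and the other 3 WT retinas the reverse. *Hmx1* had a mean log2 signal of 8.25 in *dmbo* and 8.25 in WT retinas. This does not check the labels, because a nonsense mutation leaves the probed sequence in place and need not change its level. Markers of rods, which make up most of the retina and express all 7 genes, had like means in both groups: the mean of 7 rod markers was 12.53, 12.53, 12.54 and 12.42 in the *dmbo* retinas and 12.54, 12.48, 12.53 and 12.48 in the WT retinas (two-sided exact permutation test, p = 1). The mean of 6 cone markers lay between 10.60 and 10.79 in *dmbo* and between 10.72 and 10.81 in WT retinas (two-sided exact permutation test, p = 0.257). Single cone markers went both ways, with log2 differences (*dmbo* minus WT) from -0.37 (*Pde6h*) to 0.23 (*Opn1sw*), which partly cancel in this mean. The means of 6 markers of Müller glia were higher in *dmbo* retinas (10.88 to 10.97) than in WT retinas (10.75 to 10.81), and those of 6 amacrine cell markers were lower in *dmbo* (10.05 to 10.19) than in WT retinas (10.19 to 10.33), each with p = 0.0286 in the same exact test, the smallest it can give. The markers within these 2 lists did not move alike. Among amacrine markers the log2 difference (*dmbo* minus WT) was -0.38 for *Slc6a9* and -0.36 for *Tfap2b*, against a median of -0.09 over the list. Among Müller glia markers it was 0.30 for *Aqp4*, 0.29 for *Kcnj10* and 0.26 for *Slc1a3*, against a median of 0.17. The part of Müller glia and amacrine cells in the results was not tested. In whole retinas, a change in the number of cells of a type and a change in RNA per cell cannot be told apart.

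*Guca1a* rose in *dmbo* retinas, and it was the only one of the 7 genes to do so. Its signal was 1.41 times that in WT retinas. The other 6 genes did not pass, and the 95% confidence interval of each lay within 1.2-fold in both directions. To pass, a gene needed a limma p below 0.1 after Benjamini and Hochberg adjustment and a change of at least 1.2-fold, which 0.633% of all 21652 genes did. Thus 1 of 7 genes passed, but the genes were chosen when the call of *Guca1a* was known from earlier results of these data. The count is therefore no test against the share over all genes. All 7 were bright, with mean signals above those of 91.5% (*Gucy2e*) to 99.3% (*Rcvrn*) of all probe sets.

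**Figure D1:**
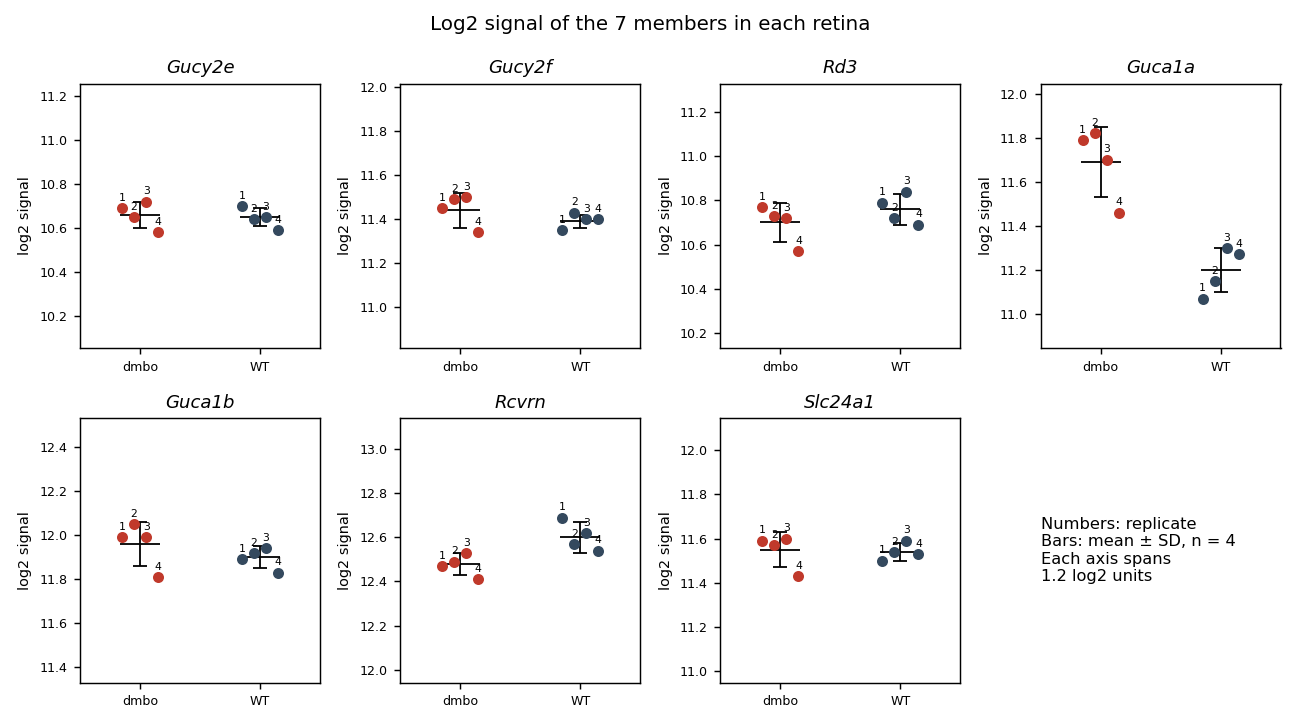
Log2 signal of each of the 7 genes (panels) in the 4 *dmbo* and 4 WT retinas, with the replicate number beside each point and bars for the mean ± SD (n = 4 each). The *dmbo* points of *Guca1a* (11.46 to 11.82) lie above its WT points (11.07 to 11.30), whereas the points of *Gucy2e*, *Gucy2f*, *Rd3*, *Guca1b* and *Slc24a1* overlap between the groups.

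The 2 cyclase genes did not pass, and their groups overlapped. *Gucy2e* (probe set 10387274) lies on chromosome 11 from 69036537 to 69050524 in the deposited table, where no build is named. Signals (log2) were 10.69, 10.65, 10.72 and 10.58 in the *dmbo* retinas (replicates 1 to 4 in order) and 10.70, 10.64, 10.65 and 10.59 in the WT retinas. The groups overlapped almost entirely, with means of 10.66 ± 0.06 in *dmbo* and 10.65 ± 0.04 in WT retinas (SD, n = 4 each). Set against WT, it had a log2 fold change, with its standard error, of 0.01 ± 0.05 (interval at 95% confidence -0.09 to 0.12, limma adjusted p = 0.995). *Gucy2f*, the second cyclase of photoreceptors, lies on the X chromosome from 138515703 to 138631474. On the arrays the log2 signal was 11.45, 11.49, 11.50 and 11.34 in *dmbo* replicates and 11.35, 11.43, 11.40 and 11.40 in WT replicates, so *dmbo* replicate 4 was below and *dmbo* replicates 1 to 3 were above all WT values. *Dmbo* minus WT, its log2 fold change and standard error were 0.05 ± 0.05 (interval at 95% confidence -0.06 to 0.16, limma adjusted p = 0.941). Because *Gucy2f* is X-linked and the arrays differed in *Xist*, its value was also taken with the *Xist* signal of each array as a covariate, where the log2 fold change was 0.02 (95% confidence interval -0.14 to 0.19).

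*Rd3*, which lies on chromosome 1 from 193801254 to 193812163, did not pass either. Its log2 signal was 10.77, 10.73, 10.72 and 10.57 in *dmbo* and 10.79, 10.72, 10.84 and 10.69 in WT replicates 1 to 4. Only *dmbo* replicate 4 fell below the WT values. Between the groups the log2 fold change, with its standard error, was -0.06 ± 0.06 (interval at 95% confidence -0.19 to 0.07, limma adjusted p = 0.934).

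Of the 2 activating protein genes, *Guca1a* passed and *Guca1b* did not. *Guca1a* encodes GCAP1, which is found in rods and at high level in cones, and its probe set 10451551 (26 probes) lies on chromosome 17 from 47531507 to 47537533. Signals (log2) were 11.79, 11.82, 11.70 and 11.46 in *dmbo* replicates 1 to 4, against 11.07, 11.15, 11.30 and 11.27 in WT replicates 1 to 4. The lowest *dmbo* retina lay 0.16 above the highest WT retina on the log2 scale. The means were 11.69 ± 0.16 in *dmbo* and 11.20 ± 0.10 in WT retinas (SD, n = 4 each), and the log2 fold change was 0.49 ± 0.08 (standard error, interval at 95% confidence 0.30 to 0.68, limma adjusted p = 0.048). By p-value it stood at rank 109 of the 28350 probe sets.

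*Guca1b* encodes GCAP2, the other activating protein of mouse photoreceptors, which is found mainly in rods. It is the neighbor of *Guca1a* on the opposite strand. Its probe set 10445664 (32 probes) is placed from 47423903 to 47529916 in the authors' table, a span of 106014 bases that also holds the position of *Mrps10*. The log2 signal of *Guca1b* was 11.99, 12.05, 11.99 and 11.81 in *dmbo* and 11.89, 11.92, 11.94 and 11.83 in WT replicates 1 to 4. *Dmbo* replicates 1 to 3 lay above all WT retinas and *dmbo* replicate 4 below them. Set against WT, it had a log2 fold change, with its standard error, of 0.06 ± 0.06 (interval at 95% confidence -0.07 to 0.19, limma adjusted p = 0.932). Within an array, the signal of *Guca1a* minus that of *Guca1b* was -0.20, -0.24, -0.29 and -0.35 in *dmbo* and -0.82, -0.77, -0.64 and -0.56 in WT replicates 1 to 4. This difference, in which signal shared by the array cancels, did not overlap between the groups, and its mean was 0.43 higher in *dmbo* than in WT retinas. Set against each of the other 5 genes in the same way, *Guca1a* was 0.44 (*Gucy2f*) to 0.62 (*Rcvrn*) higher in *dmbo* retinas, and no such difference overlapped between the groups. All of these differences hold the same values of *Guca1a*, whose own groups did not overlap, so they are not separate observations. They were not tested, since the genes were chosen with results of these data known.

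**Figure D2:**
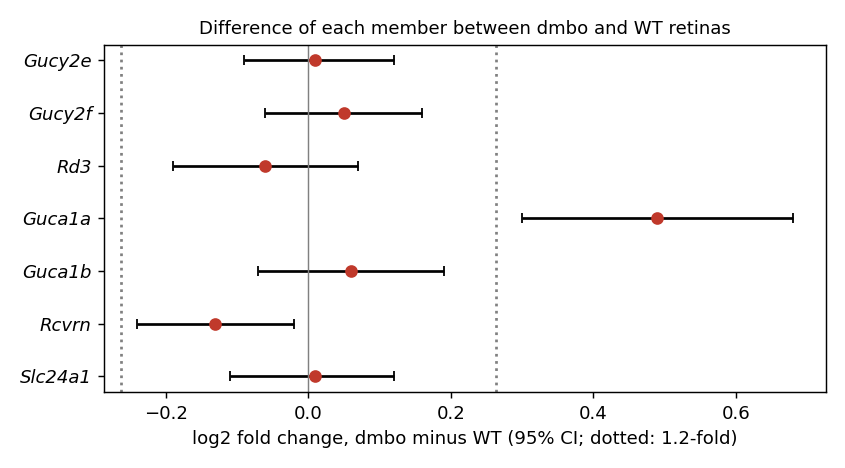
Log2 fold change of each of the 7 genes, *dmbo* minus WT, with its 95% confidence interval from limma (4 retinas per group), where dotted lines mark a change of 1.2-fold. The interval of *Guca1a* (0.30 to 0.68) lies beyond the dotted line, the interval of *Rcvrn* (-0.24 to -0.02) lies below 0 but within it, and those of the other 5 genes include 0.

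Recoverin was slightly lower in *dmbo* retinas, a difference that did not pass. *Rcvrn* lies on chromosome 11 from 67508828 to 67516835. On the arrays the log2 signal was 12.47, 12.49, 12.53 and 12.41 in *dmbo* and 12.69, 12.57, 12.62 and 12.54 in WT replicates 1 to 4. The groups did not overlap, but *dmbo* replicate 3 and WT replicate 4 differed by only 0.0021. The log2 fold change was -0.13 (standard error 0.05, interval at 95% confidence -0.24 to -0.02, limma unadjusted p = 0.0267 and adjusted p = 0.545). Groups that did not overlap were found for 2 of the 7 genes, *Guca1a* and *Rcvrn*, and for 5.83% of all genes. With the array's crystallin mean entered as a covariate the log2 fold change of *Rcvrn* was -0.04 (95% confidence interval -0.17 to 0.09).

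*Slc24a1*, which lies on chromosome 9 from 64770666 to 64799414, did not differ beyond the spread between mice. Its log2 signal was 11.59, 11.57, 11.60 and 11.43 in *dmbo* and 11.50, 11.54, 11.59 and 11.53 in WT replicates 1 to 4. *Dmbo* minus WT, its log2 fold change and standard error were 0.01 ± 0.05 (interval at 95% confidence -0.11 to 0.12, limma adjusted p = 0.998). Here too *dmbo* replicate 4 gave the lowest value of its group.

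This retina was the lowest of the 4 *dmbo* retinas in 7 of the 7 genes, and it had the highest lens crystallin signal of all 8. WT replicate 4, which had the highest lens crystallin signal of the WT retinas, was the lowest WT retina in 4 of the 7 genes and WT replicate 1 in the other 3. Without *dmbo* replicate 4 the log2 fold change of *Guca1a* was 0.57 (limma adjusted p = 0.00969). *Guca1a* was 11.70 in *dmbo* replicate 3, where the crystallin mean was 8.48, and 11.27 in WT replicate 4, where it was 9.09, the single pair in which a *dmbo* retina had less crystallin signal than a WT retina. The part of lens tissue, or of any other source of crystallin RNA, in the result was not tested. Among retinas with *Xist* and low Y-linked signal, *Guca1a* was 11.70 and 11.46 in *dmbo* replicates 3 and 4 and 11.15 in WT replicate 2. With the crystallin mean as a covariate the log2 fold change of *Guca1a* was 0.56 (95% confidence interval 0.27 to 0.85, limma adjusted p = 0.0833), and that of *Guca1b* was 0.17 (95% confidence interval 0.01 to 0.33, adjusted p = 0.201). With the *Xist* signal as a covariate the log2 fold change of *Guca1a* was 0.56 (95% confidence interval 0.27 to 0.84), but the adjusted p was 0.487 from limma. Both covariates differ between the groups and are partly confounded with genotype. Without *dmbo* replicates 1 and 2 the log2 fold change was 0.38 (95% confidence interval 0.16 to 0.60, limma adjusted p = 0.508).

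The call of *Guca1a* held in 3 of 8 omissions of a single array and was lost in 5. Its log2 fold change stayed between 0.45 and 0.57 when any single array was left out. The limma adjusted p was 0.0981 with *dmbo* replicate 3 omitted, 0.00969 with *dmbo* replicate 4 omitted and 0.092 with WT replicate 4 omitted. It was 0.157 with *dmbo* replicate 1 omitted, 0.153 with *dmbo* replicate 2 omitted, 0.153 with WT replicate 1 omitted, 0.165 with WT replicate 2 omitted and at the threshold, 0.1 after rounding and just above it before, with WT replicate 3 omitted.

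**Figure D3:**
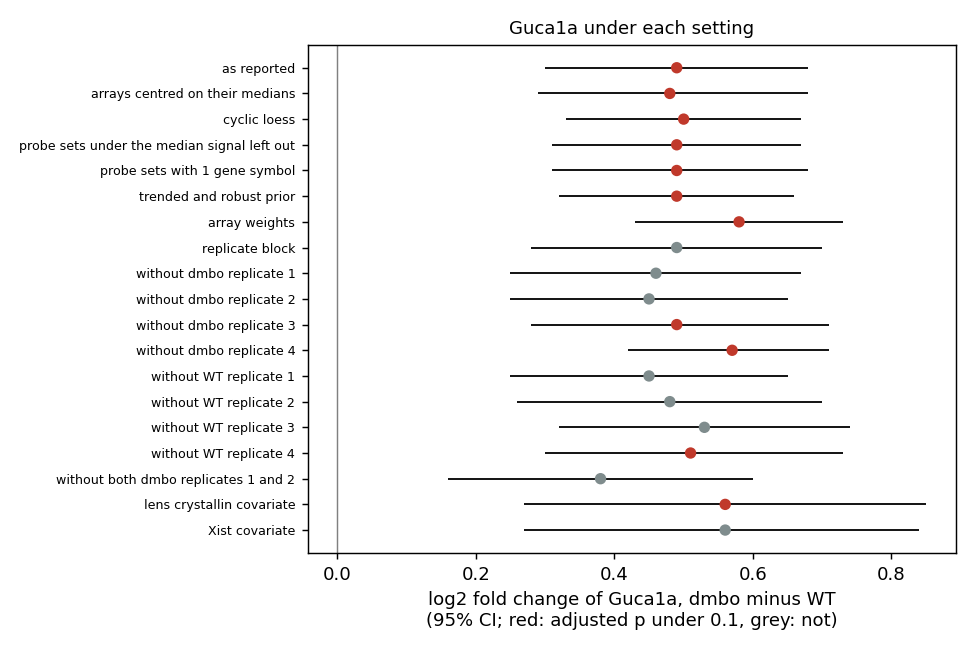
Log2 fold change of *Guca1a*, *dmbo* minus WT, with its 95% confidence interval (horizontal lines) as reported and under each other setting (rows), where red points have an adjusted p under 0.1 from limma and grey points do not. The estimate stays between 0.38 and 0.58, every interval lies above 0, and the grey points include the fits without *dmbo* replicates 1 or 2 and without WT replicates 1, 2 or 3.

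No gene near *Guca1a* on chromosome 17 passed with it. Of the 64 other probe sets within 1 Mb, 0 passed in limma (1 had an unadjusted p under 0.05), and their log2 fold changes ranged from -0.20 to 0.20 with a median of 0.01. The 3 genes before it in position were *Trerf1*, *Guca1b* and *Mrps10*, a gene of the mitochondrial ribosome, and the 3 after it were *Mrfap1*, *1700001C19Rik* and *Taf8*, which encodes a subunit of the general transcription factor TFIID. The signals of *Mrps10*, whose position lies within the span given for *Guca1b*, were 9.63, 9.34, 9.33 and 9.41 in *dmbo* and 9.25, 9.46, 9.38 and 9.41 in WT replicates 1 to 4. Around the other 6 genes, windows of the same size held from 18 (*Gucy2f*) to 93 (*Gucy2e*) other probe sets, and the single one that passed was *Guca1a* in the window of *Guca1b*.

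**Figure D4:**
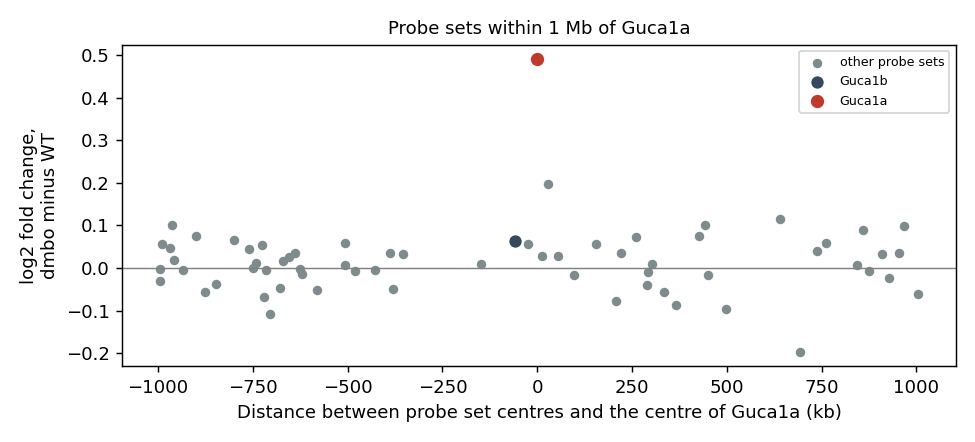
Log2 fold change (*dmbo* minus WT) of probe sets against the distance in kb between their centres and that of *Guca1a*, within 1 Mb. *Guca1a* stands at 0.49, *Guca1b* at 0.06 and all other probe sets between -0.20 and 0.20.

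The genes whose signal followed *Guca1a* most closely over the 8 arrays were *Ip6k2*, an inositol hexakisphosphate kinase (Pearson r = 0.978), *Ctnnb1*, which encodes beta-catenin (0.971), *Ndrg2* (0.965), *Hist1h1c*, a linker histone (0.965), and *Srp68*, a protein of the signal recognition particle (0.962). They are the 5 highest of 11472 genes at or above the median signal, and the difference between the groups contributes to each r. *Ip6k2* had a log2 signal of 10.96, 10.90, 10.88 and 10.57 in *dmbo* and 10.21, 10.32, 10.51 and 10.55 in WT replicates 1 to 4, so it too was lowest in *dmbo* replicate 4. None of the 5 passed the test, with adjusted p-values of 0.144 to 0.721 from limma. Among the other 6 genes of this pathway the r with *Guca1a* ran from -0.68 (*Rcvrn*) to 0.69 (*Gucy2f*), and the highest of them, *Gucy2f*, stood at rank 645 of the 11472.

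The other genes of cGMP and calcium handling were then examined in 9 lists, with 85 of 86 genes measured. Of these 85 genes, 0 rose and 1 fell, where 0.633% of all genes passed in either direction, and the median log2 fold change was -0.02, against 0.005 over all genes. A total of 13 of the 85 had groups that did not overlap, against 5.83% of all genes. An unadjusted p under 0.05 from limma was found for 11 of the 85 and for 1678 of all 21652 genes. Of these 11, 4 were in the cone list, 4 among other cGMP targets and phosphodiesterases, 2 among exchangers and pumps, 1 among calcium sensors and 0 in the other 5 lists.

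No gene of the rod cascade into which the 7 genes feed passed. Of 8 genes of its light-activated arm 0 passed, with log2 fold changes from -0.05 (*Pde6g*) to 0.06 (*Pde6d*). *Gnb1*, a beta subunit of the rod G protein and among the brightest of this list, had means of 13.76 ± 0.02 in *dmbo* and 13.78 ± 0.01 in WT retinas (SD, n = 4 each). *Pde6b*, named here because *rd1* hits it, had 12.77, 12.77, 12.79 and 12.67 in *dmbo* and 12.76, 12.77, 12.79 and 12.75 in WT replicates 1 to 4. Of 6 genes that end the light response 0 passed, with log2 fold changes from -0.08 (*Pdc*) to 0.07 (*Gnb5*), and *Sag*, the arrestin of rods, had a log2 fold change of 0.01 (limma adjusted p = 0.996). The 2 subunits of the rod channel that cGMP opens, *Cnga1* and *Cngb1*, had log2 fold changes of -0.01 and -0.03 (limma adjusted p = 0.995 and 0.982).

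The cone counterparts spread more widely, but 0 of 10 passed. *Gnat2*, the alpha subunit of the cone G protein, had a log2 signal of 11.33, 11.31, 11.44 and 11.20 in *dmbo* and 11.13, 11.05, 11.10 and 11.14 in WT replicates 1 to 4, with groups that did not overlap (log2 fold change 0.22, limma adjusted p = 0.217). The phosphodiesterase subunits of cones, *Pde6c* and *Pde6h*, had log2 fold changes of -0.25 (adjusted p = 0.278) and -0.37 (limma adjusted p = 0.361). *Cnga3*, the cone channel subunit, had one of -0.21 (limma adjusted p = 0.323). In each of these 3 genes the groups did not overlap either, and the 4 genes were named after their values were seen. *Opn1sw*, the short-wavelength cone opsin, and *Gnb3*, a beta subunit of the cone G protein, were the brightest of this list, with log2 fold changes of 0.23 (adjusted p = 0.774) and 0.01 (limma adjusted p = 0.994).

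No gene passed in the list of other guanylate cyclases, related receptors and guanylin peptides (0 of 12) or among the enzymes that supply GTP (0 of 5). *Gucy1a3* and *Gucy1b3*, the subunits of the cyclase that nitric oxide activates, had log2 fold changes of -0.06 and -0.06 (limma adjusted p = 0.915 and 0.972). *Impdh1*, which catalyzes the limiting step of GTP synthesis and is mutated in retinitis pigmentosa, and *Hprt*, an enzyme of purine salvage, had log2 fold changes of 0.01 and -0.04 (limma adjusted p = 0.995 and 0.977). Mouse *Gucy2d* encodes a cyclase of olfactory neurons, is not the counterpart of human *GUCY2D*, and is named here for its symbol. It had means of 7.96 ± 0.10 in *dmbo* and 7.95 ± 0.08 in WT retinas (SD, n = 4 each).

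Among 10 other targets of cGMP and phosphodiesterases 0 passed. *Pde10a*, a phosphodiesterase of cAMP and cGMP that was named after its values were seen, had the largest difference, with 9.36, 9.10, 9.24 and 8.88 in *dmbo* against 8.78, 8.74, 8.59 and 8.71 in WT replicates 1 to 4. The groups did not overlap, and the log2 fold change was 0.44 (standard error 0.10, limma adjusted p = 0.118). The brightest genes of this list were *Pde1b*, a phosphodiesterase that calmodulin activates, and *Prkg1*, a cGMP-dependent protein kinase, with log2 fold changes of 0.01 and 0.14 (limma adjusted p = 0.996 and 0.459). *Prkg2*, the other such kinase, had a log2 fold change of -0.24 (limma adjusted p = 0.143) and *Pde9a*, a phosphodiesterase of cGMP, one of 0.14 (limma adjusted p = 0.388), and both were named after their values were seen.

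Among 20 other calcium sensors and calcium-binding proteins, *Calb1*, the calcium buffer calbindin, fell and 0 rose. Calbindin marks horizontal and amacrine cells in the mouse retina rather than photoreceptors. Signals (log2) were 10.17, 10.32, 10.41 and 10.07 in *dmbo* and 10.73, 10.67, 10.61 and 10.60 in WT replicates 1 to 4, with no overlap. The log2 fold change was -0.41 (standard error 0.07, limma adjusted p = 0.0623). The mean of the 4 horizontal cell markers, of which *Calb1* is one, lay between 8.69 and 8.75 in *dmbo* and between 8.91 and 8.98 in WT retinas, and the part of these cells in its fall was not tested. *Calb1* with crystallin as a covariate had a log2 fold change of -0.19 (limma adjusted p = 0.131), and the call held only without *dmbo* replicate 3 or *dmbo* replicate 4 when single arrays were left out. Of the 12 other calcium exchangers and pumps 0 passed. *Slc24a2*, the exchanger of cones and the counterpart of *Slc24a1*, had a log2 fold change of -0.21 (limma adjusted p = 0.389), and *Atp2b4*, a calcium pump of the plasma membrane, one of -0.23 (limma adjusted p = 0.129). Both were named after their values were seen. The brightest were *Atp2b1*, another such pump, and *Slc24a3*, with log2 fold changes of 0.00 and -0.07 (limma adjusted p = 0.999 and 0.795).

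**Figure D5:**
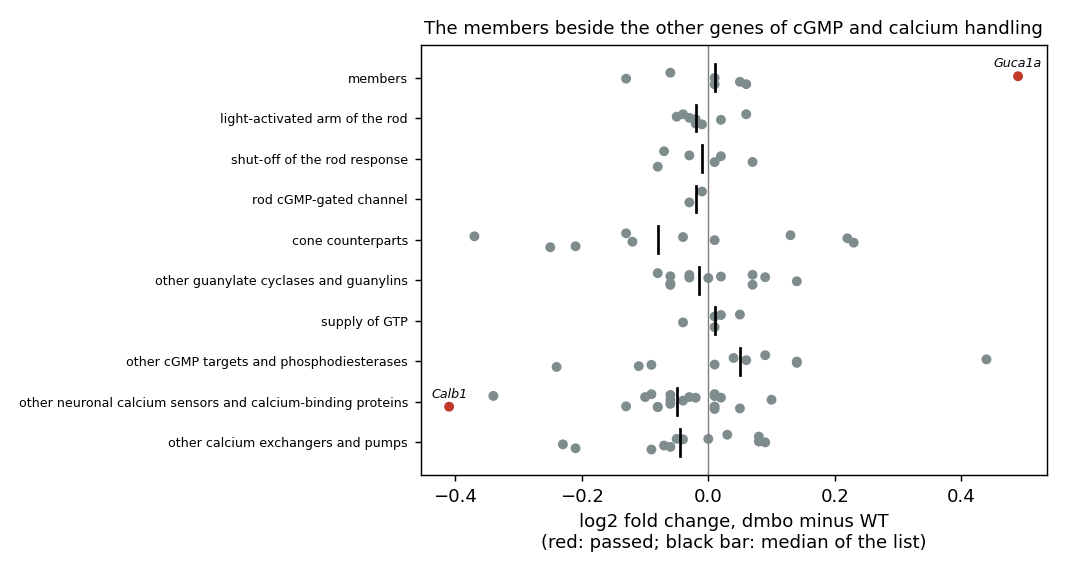
Log2 fold change (*dmbo* minus WT) of the 7 genes ("members") and of 85 other genes in 9 lists, 1 point per gene, with a bar for the median of each list and red for the genes that passed in limma. *Guca1a* at 0.49 and *Calb1* at -0.41 are the red points, and the genes of the rod cascade lie between -0.08 and 0.07.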

How the data were processed

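RNA of single retinas was amplified, labelled and hybridized to Affymetrix Mouse Gene 1.0 ST arrays. The authors made the deposited log2 signals by RMA (background correction, quantile normalization and summary per probe set), for which the sources used here give no version. The 2 deposited tables hold the same values (8 of 8 columns), and the replicate numbers come from the labels. The authors' own fold change and p-value columns were not used. The log2 values of 28350 probe sets were fitted as *dmbo* minus WT by empirical Bayes (limma 3.58.1, R 4.3.3), with Benjamini and Hochberg adjustment over all probe sets, at the authors' thresholds. The fit was tested on simulated data drawn independently for each probe set and array. These lack the differences between arrays described above, so they do not show how the fit handles those. Of several probe sets of a gene the brightest was used. The number of arrays limits the precision: the exact permutation test over 70 assignments has a smallest p of 0.0286, and quantile normalization removes any shift common to a whole array. The 7 genes, the lists and the covariate settings were chosen with earlier results of these data known. Named from the lists were genes that passed and, in lists without one, the 2 brightest; others are marked as named after their values were seen. A gene that this rule names is not reported here. Alternatives were array centring, cyclic loess, filters on probe sets, other priors, array weights, a replicate block, left-out arrays, covariates and other thresholds. RefSeq windows were searched for motifs with Python 3.11.15.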

Additional observations from a re-analysis of the deposited data

Results flagged for a closer look

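In the 7 genes no retina was flagged by the rule given next, although *dmbo* replicate 4 was the lowest *dmbo* retina in 7 of the 7. With 4 values in a group the rule finds only large gaps. Among 43 genes named here, 8 of 86 groups held a retina whose gap to the nearest other was above Dixon's critical share of the group's range, which chance gives in about 1 of 20 groups. *Dmbo* replicate 4 was low for *Sag* (13.01, others 13.07 to 13.08), *Ctnnb1* (11.80, others 11.84 to 11.85) and *Srp68* (9.72, others 9.80 to 9.81). WT replicate 4 was low for *Gucy1a3* (10.44, others 10.49) and high for *1700001C19Rik* (7.71, others 7.43 to 7.47) and *Taf8* (8.48, others 8.45). WT replicate 3 was low for *Prkg1* (9.10, others 9.18 to 9.19), and WT replicate 1 for *Ndrg2* (11.34, others 11.43 to 11.44).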

How the results depend on the processing

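The log2 fold change of *Guca1a* was positive in all settings, from 0.38 to 0.58. It no longer passed with the replicate number as a block (0.492, adjusted p = 0.126 from limma), without *dmbo* replicates 1 and 2 (0.381, adjusted p = 0.508) and with the *Xist* covariate (0.555, adjusted p = 0.487), and leaving out single arrays gave 0.451 to 0.569. In these 3 settings, as at an adjusted p under 0.01, 0 of the 7 genes passed, and 0 to 1 passed when single arrays were left out. Array centring, cyclic loess, both filters, the trended prior, array weights and the crystallin covariate left the call in place. The replicate numbers did not pair replicates 1 to 3: deviations of same-numbered retinas correlated by -0.0156, 0.0099 and 0.0491. For replicate 4 the correlation was 0.411, and WT replicate 4 was the best match of *dmbo* replicate 4. Small values changed sign: *Gucy2e* ranged from -0.00813 to 0.0378 and *Slc24a1* from -0.0125 to 0.044 when single arrays were left out, *Slc24a1* was -0.0043 with array centring and -0.0237 without *dmbo* replicates 1 and 2, and *Rd3* was 0.0142 with the crystallin covariate. The count over the 9 lists, 1 as reported, was 2 with cyclic loess, without probe sets under the median signal and with the trended prior, 4 with array weights, 3 with the crystallin covariate, 0 with the replicate block, without *dmbo* replicates 1 and 2, with the *Xist* covariate and at an adjusted p under 0.05 or 0.01, and 0 to 2 without single arrays. *Pde10a* passed in each of the settings that gave 2, 3 or 4 with all 8 arrays. The probe sets that passed, 181 as reported, numbered 30 with the *Xist* covariate, 63 without *dmbo* replicates 1 and 2, 344 with array weights and 831 with the crystallin covariate, and 87 to 199 without single arrays. The causes were not tested.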
